A study of Mus musculus with 6 samples.

Results

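The response of wild-type mouse lung to LPS was followed in 3 of the 6 single-cell RNA libraries of the series, chosen by their labels: 1 library from lung after vehicle and 2 from lung after LPS. Together they held 33179 cells after filtering. The libraries from Nos1 knockout lungs were not used. Both groups were wild type, a strain written C65BL6 by the submitters; age and sex are not given in the sources used here. LPS went into the peritoneum at 10 mg/kg, and the challenge with LPS or vehicle lasted 4 h. Lungs were digested with Liberase and DNase, red cells were lysed, and CD45 (the surface protein of blood-derived cells) was used to pull out leukocytes on magnetic beads before 10x Genomics capture. The labels do not say whether the LPS libraries came from separate mice. A p-value here therefore measures the spread between 2 libraries, which may be technical, and the lone control library is assumed to vary as they do.

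LPS, the outer-membrane lipid of Gram-negative bacteria, is handed by CD14 to the receptor formed by TLR4 and MD-2. One arm of the receptor acts through MyD88 on the transcription factor NF-kB and drives cytokines, chemokines and its own inhibitors such as IkB-alpha (Nfkbia). Another arm acts through TRIF on interferon regulatory factors, and the interferon then made turns on antiviral genes in cells that need not have met LPS themselves. The lung is known for holding many neutrophils in its capillaries during systemic LPS exposure, and its endothelium displays adhesion molecules and chemokines to passing leukocytes.

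Factors of both arms bind known motifs, so the promoters of 3 genes that rose in every cell class tested are shown. The 250 bases before the start of each gene are given on its own strand, from RefSeq on GRCm38.p6, with the kB motif (GGGA, any 2 bases, then TTCC) and the interferon motif (GAAA, any 2 bases, then GAAA) in capitals on whichever strand they were found. Cxcl10 (chr5:92348890-92349139, minus strand) held 1 match to each motif, Nfkbia (chr12:55492648-55492897, minus strand) held 1 kB match, and Rsad2 (chr12:26456453-26456702, minus strand) held 1 interferon motif.
Cxcl10: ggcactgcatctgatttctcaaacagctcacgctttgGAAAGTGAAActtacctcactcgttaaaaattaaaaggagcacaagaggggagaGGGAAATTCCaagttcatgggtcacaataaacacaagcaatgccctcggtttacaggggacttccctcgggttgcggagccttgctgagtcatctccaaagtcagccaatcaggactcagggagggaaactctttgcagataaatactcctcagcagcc
Nfkbia: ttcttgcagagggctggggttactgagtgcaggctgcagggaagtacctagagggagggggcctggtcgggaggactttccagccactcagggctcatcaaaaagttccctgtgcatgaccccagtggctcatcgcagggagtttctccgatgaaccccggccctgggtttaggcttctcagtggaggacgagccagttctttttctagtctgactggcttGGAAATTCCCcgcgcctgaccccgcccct
Rsad2: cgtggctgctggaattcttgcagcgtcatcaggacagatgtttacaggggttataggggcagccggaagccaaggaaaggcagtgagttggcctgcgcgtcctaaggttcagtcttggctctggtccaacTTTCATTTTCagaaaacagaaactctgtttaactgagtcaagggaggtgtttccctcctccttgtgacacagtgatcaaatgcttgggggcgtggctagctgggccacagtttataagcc
Of the 84 genes called higher in all 11 classes, 68 matched the promoter table. The interferon motif stood in 21 of these 68 windows (30.88%) and in 821 of all 27025 windows (3.038%). The kB motif stood in 5 of the 68 (7.353%) and in 316 of the 27025 (1.169%). The motifs were searched on both strands, and a match describes letters, not binding.

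The libraries differed in ways that bear on every comparison. Kept cells numbered 10338 in the vehicle library, 10772 in LPS replicate 1 and 12069 in LPS replicate 2, with median UMIs (counted RNA molecules) per cell of 3260, 7237.5 and 5228 and median mitochondrial shares of 4.32%, 0.546% and 0.801%. From 29 to 34 barcodes were shared by any pair of libraries. Y-linked genes together were at 186 CPM (UMIs scaled to a common library total) in the vehicle library and at most 0.0698 CPM in the LPS libraries, whereas Xist, the RNA of the silenced X chromosome, was at 0.0925 CPM in the vehicle library and at 295 and 326 CPM under LPS. The vehicle library thus carried male transcripts and both LPS libraries female ones, and effects of treatment and of sex cannot be told apart here. Nos1 itself had 2 UMIs in the vehicle library, 0 in LPS replicate 1 and 1 in LPS replicate 2 over the tested classes, so its level does not check the genotype labels.

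Each cell was placed in a class by marker genes, and 28590 of the 33179 cells (86.2%) fell in exactly 1 of 15 classes. Cells with markers of more than 1 class, which include doublets, made up 12.5% of the vehicle library and 10.1% and 9.88% of the LPS libraries. Atp6v0d2, a marker of alveolar macrophages, was found in 98.6 to 99.5% of them, and C1qb in 95.7 to 97.5% of interstitial macrophages. Not all markers held under LPS. In nonclassical monocytes (vehicle, LPS replicate 1, LPS replicate 2) Ace was found in 93.8%, 34.8% and 31.4% of cells, Spn in 85.9%, 28.1% and 30.2% and Eno3 in 75.4%, 12.4% and 5.81%, whereas Treml4 was found in 78.5%, 87.6% and 76.7% and Cd300e in 60.5%, 88.8% and 81.4%. In conventional dendritic cells Clec9a was found in 43.6%, 19.2% and 20.4% and Clec10a in 12.9%, 2.02% and 1.77%, Ccr7 in 26.7%, 95.96% and 93.8%, and Naaa under LPS was at 129 and 163 CPM against 160.2 and 151.9 CPM in the other classes. In endothelial cells Ramp2 was found in 93.0%, 50.7% and 46.1% and Calcrl in 93.9%, 48.3% and 45.6%. Tmem100, Egfl7 and Pecam1 were also found in fewer of them under LPS. Cldn5 (88.6%, 94.8% and 94.9%) and Cdh5 (85.4%, 97.6% and 96.5%) were found in more. S100a9 was found in 99.8% or more of neutrophils, and also in 12.4%, 92.3% and 87.8% of the cells of other classes, so neutrophil RNA was widespread under LPS. The sum of S100a8 and S100a9 was 148, 1308 and 918 UMIs per neutrophil (vehicle, LPS replicate 1, LPS replicate 2), and 0.497, 5.54 and 3.73 UMIs per B cell. A level for that RNA was set by letting it carry every other neutrophil transcript at the neutrophil ratio. Of the genes called higher in the 10 other classes, 96.15 to 99.65% lay more than 2 times above that level in both LPS libraries. Genes that neutrophils hold little of pass this by construction. RNA from other cell types is not covered, and the part of free RNA in the rises was not tested.

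Vehicle and LPS cells of a class also sat in different Leiden clusters, which were made from all 3 libraries without aligning them. The cluster that held most vehicle cells of a class held at most 2.22% of its cells in either LPS library. Vehicle neutrophils were in cluster 16 (98.7%), and LPS neutrophils had 34.3% and 37.0% of their cells in cluster 0 and others in clusters 2, 3 and 6. Vehicle nonclassical monocytes were in cluster 21 (86.2%) and those of the LPS libraries in cluster 19 (94.4% and 89.5%), whose marker scores named more than 1 class. The leading vehicle and LPS clusters were 7 and 5 in alveolar macrophages, 39 and 28 in interstitial macrophages, 26 and 4 in classical monocytes, 38 and 20 in conventional dendritic cells, 1 and 11 in B cells, 9 and 14 in T cells, 10 and 12 in NK cells, 33 and 13 in endothelial cells and 42 and 44 in stromal cells. Every difference within a class below is between such sets of cells, so a change within cells and a replacement of cells cannot be told apart.

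The make-up of the recovered cells differed strongly with LPS. Neutrophils were 5.21% of kept cells in the vehicle library and 47.0% and 47.7% in the LPS libraries, and classical monocytes, the Ly6c2-rich precursors of inflammatory macrophages, were 3.21%, 12.02% and 11.6%. B cells went from 23.6% to 6.31% and 5.97%, T cells from 13.6% to 2.25% and 2.24%, NK cells from 11.1% to 2.73% and 2.83%, and alveolar macrophages from 20.6% to 9.78% and 8.48%. Nonclassical monocytes, which patrol the vessel wall, went from 3.42% to 0.826% and 0.713%. In each of these 7 classes the exact 95% binomial intervals of both LPS libraries lay apart from that of the vehicle library; for neutrophils the intervals were 4.79 to 5.66%, 46.0 to 47.9% and 46.8 to 48.6%. Plasmacytoid dendritic cells were also higher, with 3, 18 and 19 cells, but no Leiden cluster was named for them, and with a stricter cell filter (2, 17 and 17 cells) the intervals overlapped. The intervals overlapped for interstitial macrophages, conventional dendritic cells, platelets, endothelial, stromal and epithelial cells and basophils. These are shares of recovered cells under counting error only, so a higher share of neutrophils lowers the other shares. As a share of all kept cells other than neutrophils, alveolar macrophages were 21.7%, 18.4% and 16.2%, B cells 24.9%, 11.9% and 11.4%, T cells 14.3%, 4.24% and 4.27%, NK cells 11.7%, 5.15% and 5.40% and nonclassical monocytes 3.61%, 1.56% and 1.36%. On that base, conventional dendritic cells and endothelial cells had LPS-to-vehicle ratios of 1.71 and 1.61 in place of 0.9495 and 0.896.

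**Figure D1:**
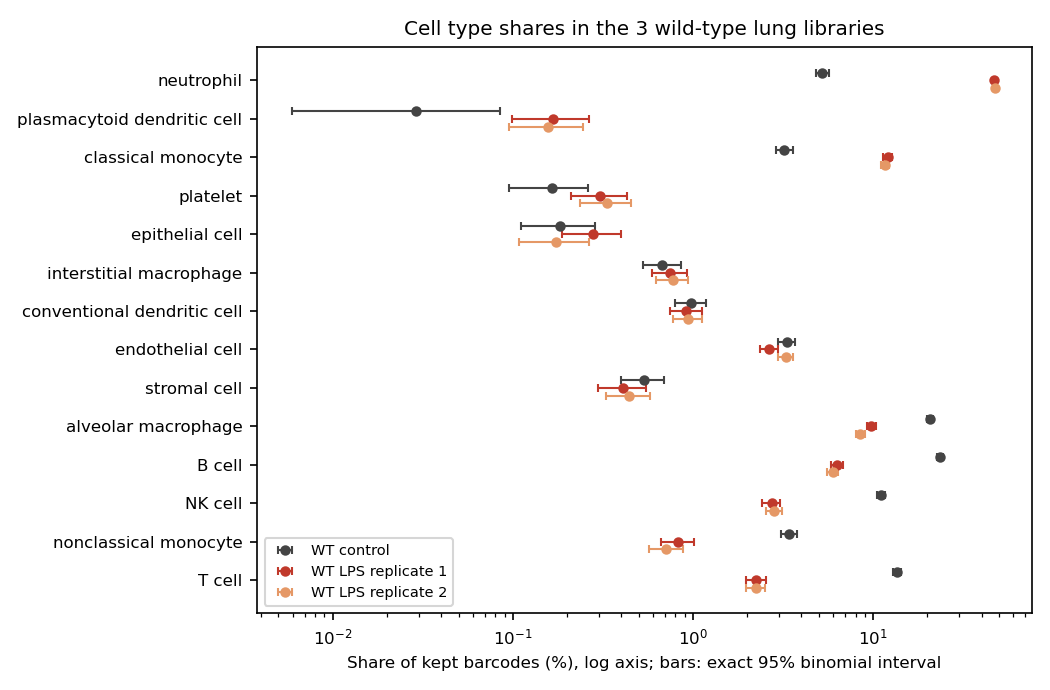
Share of kept cells (percent, log axis) in each gated class for the vehicle library and the 2 LPS libraries, with exact 95% binomial intervals as bars. The LPS libraries lie together, with neutrophils at 47.0% and 47.7% against 5.21% in the vehicle library and T cells at 2.25% and 2.24% against 13.6%.

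Gene expression was compared within 11 classes, those that held 30 or more cells in each library. A gene is called higher when edgeR's quasi-likelihood test on UMIs summed per library and class gave a Benjamini-Hochberg adjusted p under 0.05 and the exact 95% interval of its ratio to the vehicle library lay wholly above 2-fold in each LPS library; lower is the mirror image. Levels are in CPM of the class after TMM scaling, and values in a row are in the order vehicle, LPS replicate 1, LPS replicate 2. Where 1 group had 0 UMIs, 'at least' sets the mean level of the other group against a floor of 3 UMIs. It is an estimate and not a confidence limit. For Saa3 in classical monocytes it was 19000-fold, while the exact 95% intervals of the 2 ratios began at 15202 and 15702. B cells had 1295 genes called higher (12.1% of those tested) and 662 lower (6.19%), endothelial cells 1246 higher (11.4%) and 788 lower (7.2%), and neutrophils 1296 higher (10.5%) and 867 lower (7.04%). Classical monocytes had 1092 genes higher (9.08%) and 964 lower (8.01%). Conventional dendritic cells had 732 higher (8.62%) and 371 lower (4.37%), and nonclassical monocytes 527 higher (7.75%) and 370 lower (5.44%). Stromal cells had 411 higher (7.44%) and 111 lower (2.01%), and interstitial macrophages 579 higher (6.88%) and 324 lower (3.85%). T cells had 517 higher (6.04%) and 131 lower (1.53%), NK cells 496 higher (5.84%) and 240 lower (2.83%), and alveolar macrophages 623 higher (4.91%) and 328 lower (2.59%). Cell numbers and depth differ between the classes, so these counts do not rank them by strength of response.

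The split between rises and falls depended on the scaling. Plain library totals in place of TMM moved the median of all genes by -1.28 on the log2 scale in neutrophils, -0.64 in endothelial cells, -0.56 in conventional dendritic cells, -0.47 in interstitial macrophages, -0.40 in classical monocytes and by -0.29 to -0.12 in the other 6 classes. Counts called higher and lower under plain totals were 513 and 2935 of 12317 tested in neutrophils and 763 and 1779 of 10945 in endothelial cells. They were 741 and 1496 of 12028 in classical monocytes, 446 and 799 of 8492 in conventional dendritic cells and 397 and 658 of 8412 in interstitial macrophages. Nonclassical monocytes had 446 and 517 of 6804, alveolar macrophages 501 and 527 of 12683 and B cells 1052 and 955 of 10702. NK cells had 370 and 412 of 8487, stromal cells 337 and 186 of 5523 and T cells 469 and 184 of 8564. List counts under plain totals below are to be read beside these, and no list was tested against them. Of the genes called, 14 in neutrophils changed sign under plain totals and none in the other 10 classes; among the genes of the lists used here these were Ier2 and H2-D1.

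**Figure D2:**
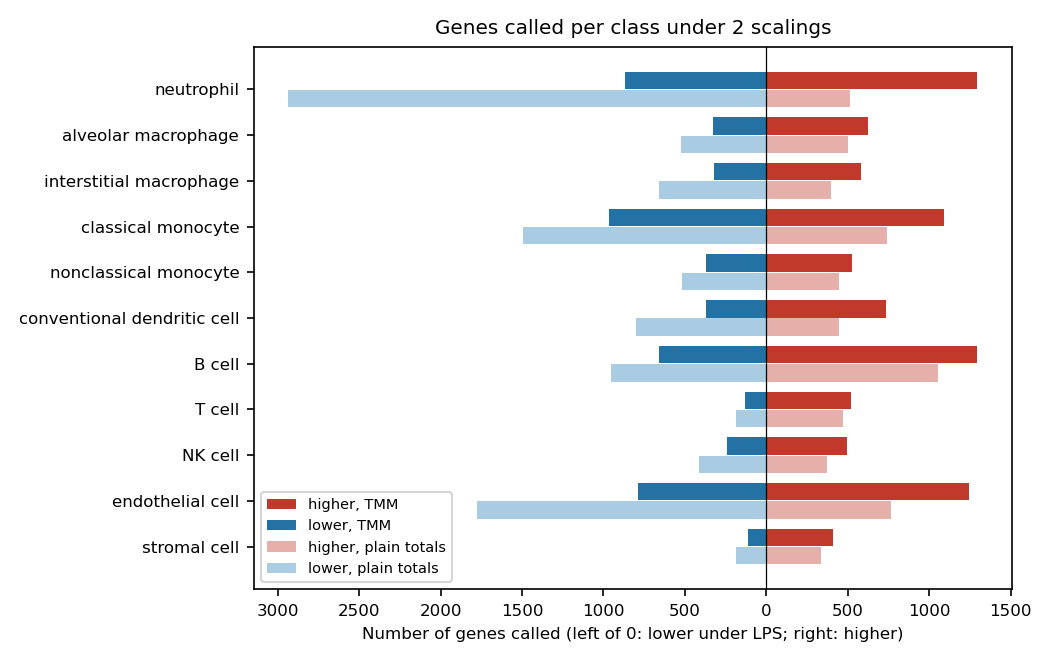
Number of genes called lower (left of 0) and higher (right of 0) under LPS in each class, with TMM scaling in dark bars and plain totals in pale bars. In neutrophils 1296 genes were called higher and 867 lower with TMM, and 513 and 2935 with plain totals.

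Genes of the LPS receptor complex and its adaptors had members called higher in each class, led by the co-receptor. Cd14 was called higher in all 11 classes. Its level in neutrophils was 72.8, 3768 and 3772 CPM, a log2 difference of 5.70 ± 0.09 (SE), and in endothelial cells 4.26, 307 and 294 CPM (6.12 ± 0.22). Both LPS libraries lay far above the vehicle library in each class. Among the 10 classes other than neutrophils, Cd14 was as low as 2.61 and 2.25 times the level set for neutrophil RNA (LPS replicates 1 and 2). Tlr4 itself was called only in neutrophils, at 17, 126 and 124 CPM (2.87 ± 0.15, adjusted p = 4.20e-47 by edgeR's quasi-likelihood test); in alveolar macrophages it was at 56.6, 103 and 108 CPM, which missed the call. Whether the response of Tlr4 differs between these classes was not tested. Of the 22 genes of LPS sensing and signalling, 14 of 22 tested were called higher in neutrophils, 10 of 17 in endothelial cells, 7 of 10 in stromal cells, 9 of 22 in classical monocytes, 6 of 20 in alveolar macrophages, 3 of 18 in conventional dendritic cells, 3 of 20 in B cells and 2 of 13 in T cells. Over all tested genes 10.5% were called higher in neutrophils, 8.62% in conventional dendritic cells, 12.1% in B cells and 6.04% in T cells. The list was not tested against these shares. Under plain totals the neutrophil count was 6 higher and 1 lower, and the calls of Lbp in neutrophils and Tlr3 in classical monocytes were lost. Among the others were Lbp, the serum protein that carries LPS to CD14, at 0.68, 11.7 and 11.9 CPM in neutrophils, and Irak3, an inhibitory kinase of the MyD88 route, at 26.5, 640.2 and 629 CPM. Trem1, a receptor that amplifies TLR signals, was at 30.3, 129 and 135 CPM in alveolar macrophages. Tlr3, the receptor for double-stranded RNA, rose in classical monocytes (1.44, 9.32 and 10.1 CPM) and fell in conventional dendritic cells (83.4, 4.15 and 7.64 CPM).

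NF-kB subunits and inhibitors formed a list that rose in every class. Between 8 of 19 (T cells) and 18 of 19 (endothelial cells) members were called higher and 0 lower; under plain totals 1 member was called lower in neutrophils. The median log2 difference of the list was 3.70 in endothelial cells and 3.39 in neutrophils, where all tested genes had medians of -0.04 and 0.32. Nfkbia, the inhibitor that NF-kB induces to end its own activity, was at 255, 6467 and 6548 CPM in neutrophils (4.67 ± 0.07), 94, 1247 and 1189.8 CPM in alveolar macrophages and 267, 1064 and 1121 CPM in B cells. Tnfaip3, which encodes the ubiquitin-editing inhibitor A20, was at 14, 492 and 460.4 CPM in endothelial cells (5.09 ± 0.16). Both genes were above the vehicle library in both LPS libraries in all 11 classes. Bcl3, an atypical IkB protein, reached 8.14, 388 and 369.7 CPM in endothelial cells, and Sod2, the mitochondrial superoxide dismutase and a known NF-kB target, 73.5, 4215 and 4304 CPM in classical monocytes.

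**Figure D3:**
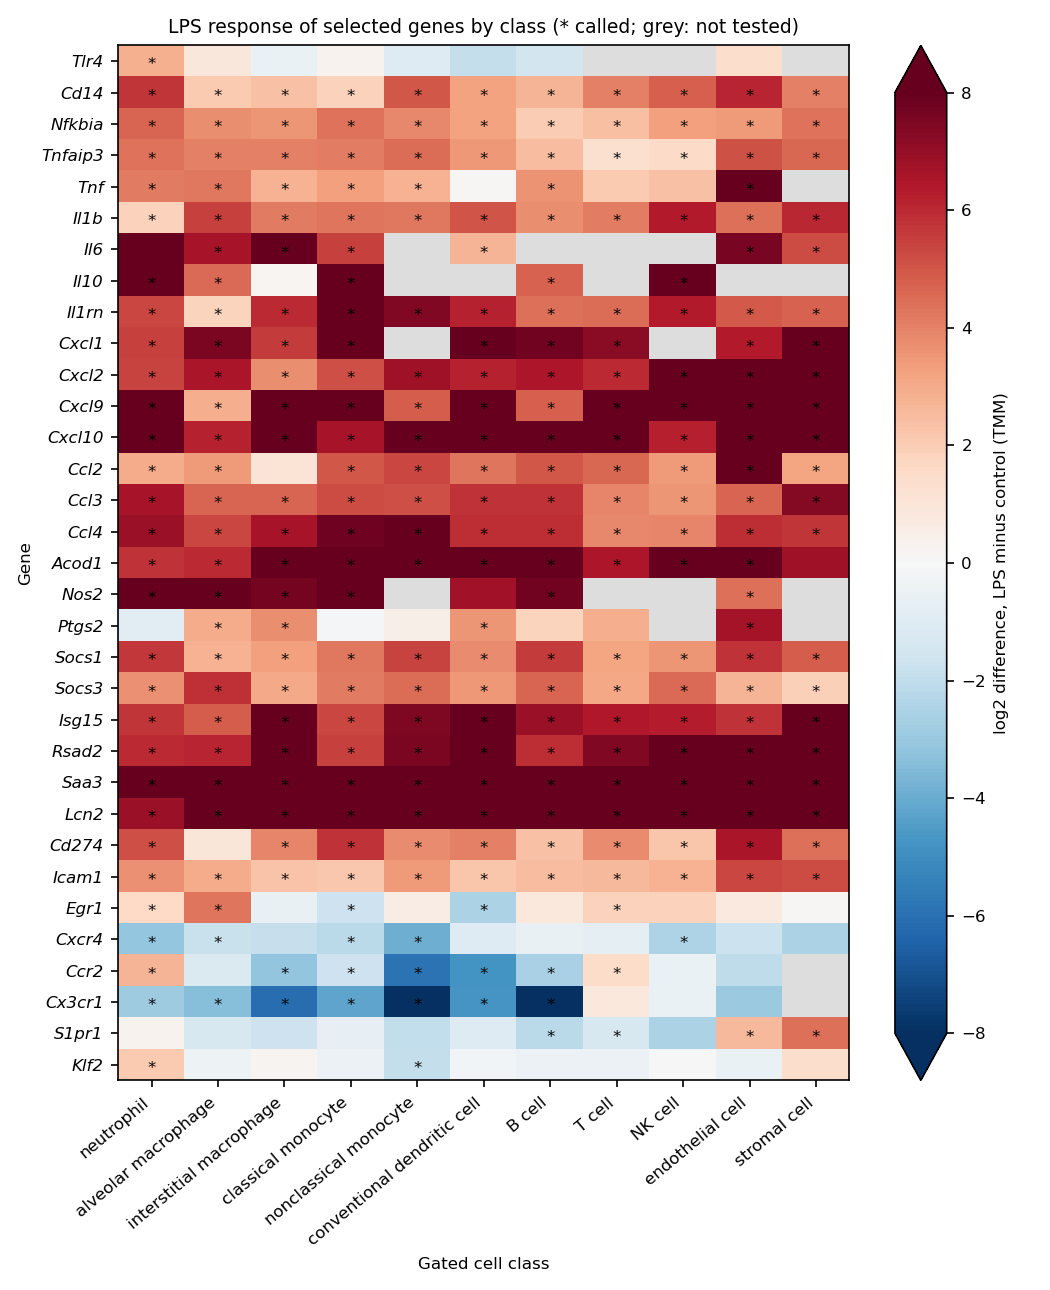
Log2 difference (LPS minus vehicle, TMM scaled) of named genes in the 11 tested classes, with an asterisk where the gene was called and grey where it was not tested. Values past 8 on either side share the end colour, and those of genes with 0 control UMIs depend on the prior count and are not bounds; Cd14, Nfkbia, Saa3 and Lcn2 are called in every class while Tlr4 is called in neutrophils only.

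Inflammatory cytokines rose in each class. Tnf was at 13.3, 244 and 256 CPM in alveolar macrophages (4.23 ± 0.09) and 11.6, 197 and 211 CPM in neutrophils (4.14 ± 0.15), and was not called in conventional dendritic, T or NK cells. Il1b, the main fever-inducing cytokine of myeloid cells, was at 3426, 12482 and 12621 CPM in neutrophils (1.87 ± 0.06) and at 21.6, 1002 and 927 CPM in alveolar macrophages (5.48 ± 0.10). In both classes the LPS libraries lay close together and above the vehicle library. Under plain totals Il1b in neutrophils was at 6180.4, 9254 and 9435 CPM (0.60), and the call was lost. Of all Il1b UMIs in the tested classes, neutrophils held 76.0% in the vehicle library and 83.1% and 82.8% under LPS. Il6, the inducer of the hepatic acute-phase response, was at 1.44, 61.7 and 69.3 CPM in classical monocytes, where the vehicle library had 3 UMIs and the ratio a 95% interval of 15.5 to 219.5. Classical monocytes held 69.2% and 67.3% of Il6 UMIs under LPS. In stromal cells it was at 2.94, 117 and 133 CPM, from 1 UMI in the vehicle library. Csf3, the growth factor that mobilises neutrophils, was at 0, 42.2 and 50.4 CPM in endothelial cells and 0, 415 and 314 CPM in stromal cells. Il27, made by activated myeloid cells, was at 0.927, 161 and 217 CPM in conventional dendritic cells. Of the cytokine list, 13 of 19 tested members were called higher in alveolar macrophages, 12 of 19 in neutrophils, 12 of 20 in classical monocytes and 5 of 9 in NK cells, and 0 lower in any class; under plain totals 1 was called lower in neutrophils. Ifnb1, the first interferon of the TRIF arm, was tested in classical monocytes only and missed the call there, with 0, 11 and 24 UMIs over the tested classes.

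Chemokines that draw neutrophils had members called higher in every class. Cxcl2 was at 491, 21062 and 20334 CPM in neutrophils (5.40 ± 0.08) and 30.4, 3053 and 2634 CPM in alveolar macrophages (6.55 ± 0.11), and neutrophils held 89.1% and 89.9% of its UMIs under LPS against 43.1% in the vehicle library. Cxcl1 was at 0, 587 and 797 CPM in stromal cells, at least 78.6-fold higher against a floor of 3 UMIs over the vehicle library, and at 4.26, 358 and 352 CPM in endothelial cells (6.36 ± 0.21). Cxcl3 was at 3.48, 1504 and 1327 CPM in alveolar macrophages (8.66 ± 0.13). All 3 genes were called higher in each class where they were tested. Cxcl5 was called higher in stromal cells only (0, 112 and 109 CPM) and was also tested in interstitial macrophages.

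Chemokines for monocytes and lymphocytes rose beside them. Ccl2, the ligand of CCR2, was at 50.4, 1542 and 1683 CPM in classical monocytes (5.00 ± 0.10) and 147, 1489.9 and 1118 CPM in stromal cells (3.15 ± 0.24), and classical monocytes held 89.4% and 87.6% of its UMIs under LPS. Ccl3 and Ccl4, which draw monocytes and lymphocytes, were the chemokines of vehicle NK cells, which held 72.2% and 88.3% of their UMIs. In NK cells Ccl3 was at 565, 5827 and 7188 CPM and Ccl4 at 1487, 21910 and 22792 CPM. Under LPS the neutrophils held 81.3% and 80.3% of Ccl3 and 76.5% and 75.2% of Ccl4. In stromal cells neither gene was more than 2 times above what neutrophil RNA could bring in both LPS libraries. Ccl12 was at 0, 716 and 615 CPM in classical monocytes, at least 462-fold higher, and Ccl22, which draws CCR4 cells, at 0, 697 and 586 CPM in interstitial macrophages, at least 169-fold higher. Ccl11, the eosinophil chemokine eotaxin, was called in stromal cells at 0, 478 and 375 CPM. Ccl6 went in opposite directions: it rose in alveolar macrophages (3633, 10121 and 9326 CPM) and fell in neutrophils (1794, 430.4 and 403 CPM) and classical monocytes (973, 246 and 227 CPM).

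The ligands of CXCR3, which interferon induces and which draw T and NK cells, rose in every class. Cxcl10 was not detected in vehicle endothelial cells and was at 0, 21404 and 22605 CPM, at least 18926-fold higher. In alveolar macrophages it was at 3.89, 291 and 271 CPM (6.17 ± 0.11), and in classical monocytes at 66.3, 6444 and 6456 CPM (6.60 ± 0.09). Per cell, alveolar macrophages held less than 5 times the Cxcl10 of the class with the lowest level, in both LPS libraries. How much of it was free RNA from other cells was not tested. Among the 11 classes the Cxcl10 level in CPM under LPS was highest in endothelial cells and lowest in alveolar macrophages in both LPS libraries. Endothelial cells held 11.3% and 14.7% of Cxcl10 UMIs and neutrophils 56.1% and 53.4%. Cxcl9 was at 0, 2105 and 2132 CPM in endothelial cells, at least 1822-fold higher, and at 0.927, 2157 and 2482 CPM in conventional dendritic cells. Cxcl12, the ligand of CXCR4, fell in endothelial cells, at 162, 58.7 and 46.6 CPM (-1.63 ± 0.14).

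Interferon-stimulated genes rose almost without exception outside alveolar macrophages. In 10 classes 31 to 34 of the 33 or 34 tested members of a list of 36 were called higher, and in alveolar macrophages 25 of 34; 0 members were called lower in any class. The list's median log2 difference was 2.82 for alveolar macrophages, 2.93 for classical monocytes and from 3.85 to 5.82 in the other 9 classes, or to 5.55 with genes at 0 control UMIs set against the floor of 3 UMIs. Rsad2 (viperin), which blocks viral replication, was at 5.81, 7800.4 and 8621 CPM in endothelial cells and 1.79, 122 and 121 CPM in alveolar macrophages (6.07 ± 0.13). Isg15, a ubiquitin-like protein joined to targets during the interferon response, was at 26.8, 2385 and 2234 CPM in T cells (6.43 ± 0.14) and 11.2, 1372 and 1311 CPM in B cells (6.90 ± 0.13). Ifit3, an RNA-binding antiviral protein, was at 1.41, 73.5 and 70.7 CPM in NK cells, and Iigp1, a GTPase that attacks vacuoles of parasites, at 0, 48.8 and 54.9 CPM in nonclassical monocytes. All of these were low in the vehicle library and high in both LPS libraries. Each interferon-stimulated gene called higher in the 10 classes other than neutrophils also lay more than 2 times above the level set for neutrophil RNA. That level does not cover RNA from other cells.

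Antigen presentation genes split by class I and class II. The class I list, which holds the heavy chains, B2m, the peptide transporter and the immunoproteasome, had 15 of 16 members called higher in neutrophils, endothelial cells and stromal cells, with 10, 13 and 15 under plain totals and H2-D1 changing sign in neutrophils. In alveolar macrophages 3 of 16 were called (Nlrc5, H2-Q4 and Tap1), and 1 under plain totals, where the call of Tap1 was lost. Tap1, a subunit of the peptide transporter, was at 58.1, 1089 and 1084 CPM in endothelial cells (4.22 ± 0.12) and 25.2, 56.5 and 63.9 CPM in alveolar macrophages (1.25 ± 0.09). Nlrc5, the transactivator of class I genes, was at 2.04, 161 and 169 CPM in neutrophils. Class II genes went the other way in several classes: 9 of 10 were called lower in B cells, 6 of 10 in classical monocytes, 5 of 10 in interstitial macrophages and 5 of 5 in stromal cells, and 0 of 9 in T cells. H2-DMa, which loads peptides onto class II, was at 482, 114 and 114 CPM in B cells (-2.08 ± 0.10), and Ciita, the class II master regulator, at 209, 51 and 49.5 CPM (-2.05 ± 0.12). H2-Ab1, a class II chain, was at 2703, 1082 and 1244 CPM in B cells. Cd74, the invariant chain, rose in neutrophils (115, 1029.6 and 948 CPM) and fell in stromal cells (1016, 213 and 164 CPM). The part of free RNA from other cells in the class II level of stromal cells was not tested.

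**Figure D4:**
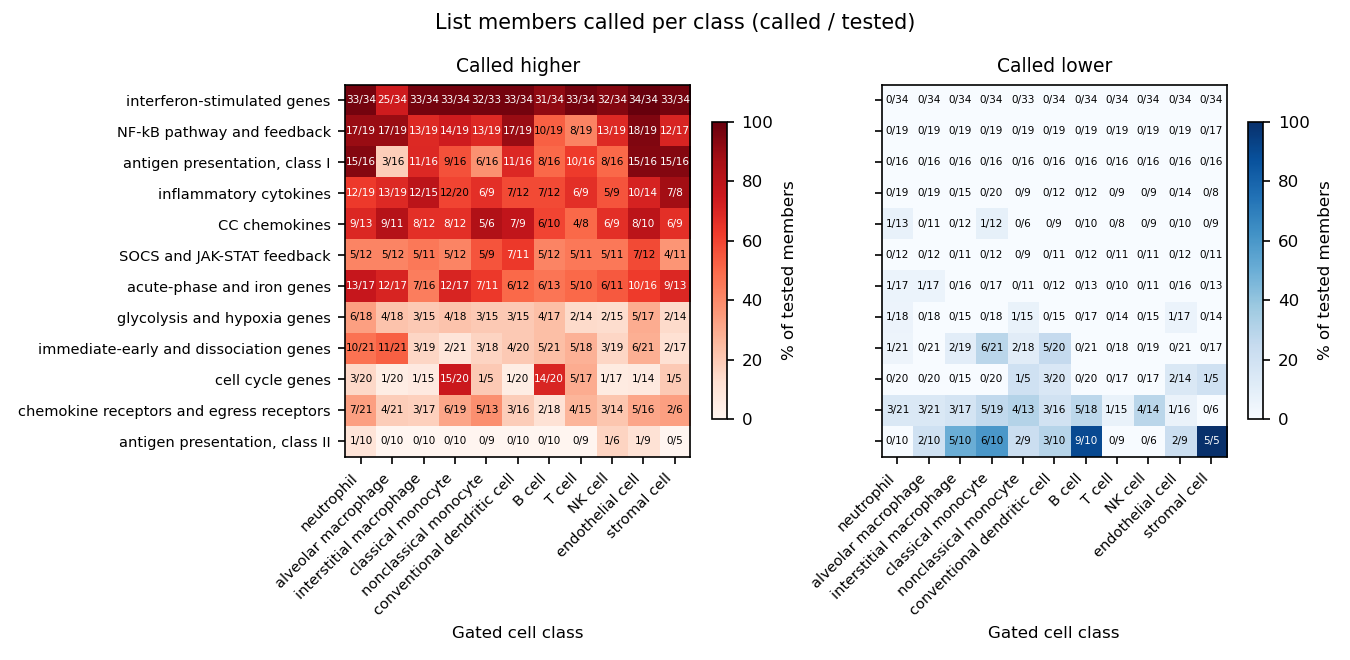
Number of list members called over number tested in each class, higher on the left and lower on the right, with colour as the percent of tested members (TMM scaling). Interferon-stimulated genes were called higher in 25 of 34 tested members in alveolar macrophages and in 31 to 34 in the other classes, and class II genes lower in 9 of 10 in B cells; H2-D1 (class I) and Ier2 (immediate-early) change sign in neutrophils under plain totals.

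Feedback inhibitors of cytokine signalling rose in all classes. Socs1, which blocks JAK kinases and is the subject named in the title of the series, was called higher in all 11 classes. It was at 6.21, 299 and 308 CPM in B cells (5.60 ± 0.16), 5.04, 298 and 271 CPM in endothelial cells (5.81 ± 0.21) and 2.92, 18.4 and 21.2 CPM in alveolar macrophages (2.75 ± 0.18). Socs3, the inhibitor of IL-6-type receptors, was at 5.74, 337 and 332 CPM in alveolar macrophages (5.86 ± 0.10) and 153, 1886 and 1949 CPM in neutrophils (3.65 ± 0.07). Cish, the inhibitor induced by STAT5, was at 0, 326 and 338 CPM in neutrophils, at least 163-fold higher. Of the SOCS list 4 of 11 tested members were called higher in stromal cells, 7 of 12 in endothelial cells and 5 of 12 in neutrophils, 0 were lower in any class, and Socs4, Socs5 and Socs6 were called in none. The secreted inhibitors rose too. Il10, the main anti-inflammatory cytokine, was at 0, 69.3 and 65.6 CPM in neutrophils, at least 33.1-fold higher, and neutrophils held 87.2% and 86.7% of its UMIs under LPS. Il1rn, which blocks the IL-1 receptor, was at 5.76, 2896 and 2908 CPM in classical monocytes (8.97 ± 0.13) and 141, 501 and 487 CPM in alveolar macrophages (1.81 ± 0.07). The checkpoint ligand Cd274 (PD-L1) was at 14.7, 1315 and 1368 CPM in endothelial cells (6.50 ± 0.15) and 17, 613 and 619 CPM in neutrophils. In alveolar macrophages, its main source in the vehicle library with 81.2% of UMIs, it was at 122, 241 and 237 CPM and missed the call.

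Enzymes of nitric oxide and itaconate synthesis rose in myeloid cells. Nos2, the inducible nitric oxide synthase, was at 0, 326 and 304 CPM in classical monocytes, at least 219-fold higher, and at 0, 269.7 and 255 CPM in neutrophils, at least 129-fold higher. They held most of its UMIs, with 58.0% and 58.4% in neutrophils and 39.6% and 38.8% in classical monocytes under LPS. Acod1, which makes itaconate, was at 0, 1318 and 1478 CPM in nonclassical monocytes, at least 771-fold higher, and 38.1, 2152 and 2122 CPM in neutrophils. Arg1, arginase, was called only in classical monocytes, at 0, 7.51 and 6.47 CPM. Ptgs2 (COX-2), the enzyme of inducible prostaglandin synthesis, stood at 451, 247 and 249 CPM in neutrophils, which missed the call but passed it, as lower, under plain totals (815, 183 and 186 CPM, -2.14). It rose in endothelial cells (0.775, 107 and 61.6 CPM, from 2 UMIs, interval of the ratio 29.7 to 896). Ptges, the prostaglandin E synthase, was called higher in 10 classes (8 under plain totals), with 1.92, 285 and 335 CPM in classical monocytes. Alox5ap, which serves leukotriene synthesis, fell in 5 classes, with 1305, 576 and 556 CPM in neutrophils.

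Saa3 and Lcn2, genes of acute-phase proteins, were called higher in every class. Saa3, the extrahepatic serum amyloid A, was not detected in vehicle classical monocytes or stromal cells and was at 0, 26924 and 27811 CPM in the former, at least 19000-fold higher, and at 0, 27681 and 33920 CPM in the latter, at least 3496-fold higher. Classical monocytes held 64.7% and 63.2% of its UMIs and neutrophils 30.8% and 30.1%. In alveolar macrophages it was at 0.256, 502 and 533 CPM. Per cell, classical monocytes held 316 and 368 times the Saa3 of the class with the lowest level (LPS replicates 1 and 2). How much of the Saa3 in the other classes was free RNA from monocytes was not tested. Lcn2, which binds bacterial iron carriers, was at 435, 52053 and 51465 CPM in neutrophils (6.89 ± 0.09), and at 0, 2349 and 4529 CPM in stromal cells, at least 390.4-fold higher. In alveolar macrophages, B, T and NK cells Lcn2 was not beyond 2 times what neutrophil RNA could bring in both LPS libraries. In both genes the LPS libraries lay within a factor of 2 of each other in each class named here. Ptx3, a pattern-recognition protein, was at 0, 462 and 475 CPM in classical monocytes, at least 325-fold higher. Hamp (hepcidin), which blocks iron export, was at 0, 298 and 252 CPM in conventional dendritic cells, at least 98.9-fold higher, and Slc40a1, the iron exporter that hepcidin removes, fell in alveolar macrophages (3.84, 0.813 and 0.514 CPM). The metal-binding metallothioneins Mt1 and Mt2 were called higher in all 11 classes (Mt1 in 10 under plain totals), with Mt2 at 11.6, 8829.9 and 9323 CPM in endothelial cells (9.60 ± 0.15).

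Endothelial cells stayed in the preparation despite the CD45 selection (342, 286 and 395 cells) and had higher levels of several adhesion genes. Of 17 leukocyte adhesion molecules tested there, 5 were called higher and 1 lower, and 4 and 4 under plain totals, where the median log2 difference of the list was -0.21. Selp (P-selectin), which starts leukocyte rolling, was at 0, 582 and 519.5 CPM, at least 474-fold higher, and Sele (E-selectin) at 0, 52.2 and 59.5 CPM, at least 48-fold higher. Vcam1 and Icam1, ligands of leukocyte integrins, were at 11.6, 516 and 538 CPM (5.50 ± 0.17) and 59.7, 2445 and 2359 CPM (5.33 ± 0.12). For all 4 genes both LPS libraries lay above the vehicle library. Sele was called in endothelial cells alone, whereas Icam1 was called in all 11 classes. Angpt2, which destabilises vessels by opposing the TIE2 receptor, was at 17.8, 162 and 154 CPM (3.14 ± 0.19), and Tek, which encodes TIE2, at 400.4, 42.6 and 43.3 CPM (-3.22 ± 0.13). Kdr, the main VEGF receptor, fell (484, 79.1 and 85.3 CPM, -2.56 ± 0.11), as did Klf4, a quiescence factor of endothelium, at 358, 60.4 and 64.9 CPM (-2.51 ± 0.12). S1pr1, which supports the endothelial barrier, was at 389.9, 2284 and 2345 CPM (2.57 ± 0.10). Of 24 barrier and vessel genes tested, 5 were called higher and 4 lower, and 3 and 10 under plain totals. Over all 10945 genes tested in endothelial cells, plain totals gave 763 higher and 1779 lower.

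The largest endothelial falls were in genes of other functions. Glp1r, the incretin receptor, was at 349.6, 3.04 and 6.24 CPM (-6.21 ± 0.18), Cavin2, which shapes caveolae, at 1603, 34.3 and 30.4 CPM (-5.63 ± 0.11), and Myzap, a junction-associated protein, at 426, 9.56 and 13.3 CPM (-5.21 ± 0.15). Hey1, a target of Notch, was at 114, 4.78 and 2.08 CPM. A shift in which endothelial cells were captured was not tested. Cdh5, a junction protein and gate marker whose call was lost under plain totals, was at 1192, 2787 and 2766 CPM. Ramp2 and Calcrl, also gate markers, were found in fewer cells under LPS, as given above.

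Coagulation genes of the endothelium moved in both directions. F3 (tissue factor), which starts clotting, was at 1.16, 16.1 and 19.1 CPM, from 3 UMIs in the vehicle library (interval of the ratio 5.02 to 75.1). Thbd (thrombomodulin), the cofactor that turns thrombin to protein C, fell (654, 48.7 and 39.5 CPM, -3.89 ± 0.12). Plat, the activator of clot lysis, also rose (43, 713 and 679.8 CPM), as did Procr, the protein C receptor (0.388, 58.3 and 25.8 CPM, from 1 UMI, interval 19.1 to 4269). Of 14 coagulation genes tested there, 7 were called higher and 1 lower under both scalings. Thbd went down in classical and nonclassical monocytes too and up, with TMM but not under plain totals, in alveolar macrophages (19, 49.4 and 44.9 CPM).

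**Figure D5:**
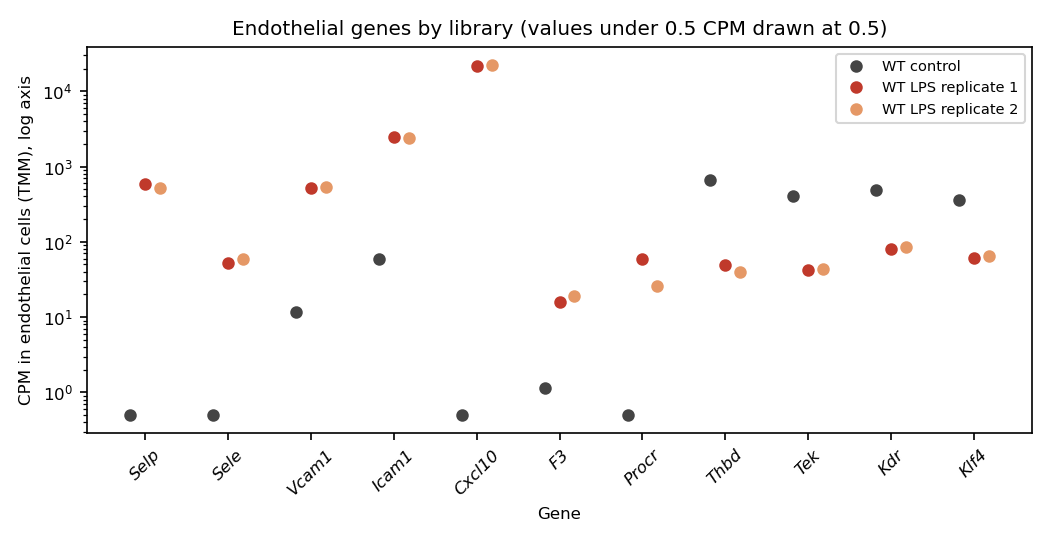
Level in endothelial cells (CPM after TMM scaling, log axis) of 11 genes of adhesion, chemotaxis, coagulation and vessel identity in each library; vehicle values of 0, and that of Procr, are drawn at the foot of the axis. The LPS libraries sit together above the vehicle library for Selp to Procr and below it for Thbd, Tek, Kdr and Klf4.

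Receptors that place leukocytes in tissue moved in both directions. Cx3cr1, the fractalkine receptor of patrolling monocytes, was at 561, 1.81 and 0 CPM in nonclassical monocytes, 432, 9.3 and 3.37 CPM in interstitial macrophages (-6.07 ± 0.34) and 288, 16.1 and 14.5 CPM in classical monocytes (-4.23 ± 0.10). Ccr2 was at 331, 13.3 and 10.5 CPM in conventional dendritic cells (-4.77 ± 0.24), and fell in classical monocytes too, where it is one of the gate's markers. In T cells Ccr2 rose with TMM but was not called under plain totals (38.8, 115 and 101 CPM). Cxcr4, which holds cells in marrow and in the lung's vessels, was at 291, 33.1 and 35.3 CPM in neutrophils (-3.09 ± 0.08) and 128, 9.04 and 7.85 CPM in nonclassical monocytes (-3.88 ± 0.37). Cxcr2, the neutrophil receptor for CXC chemokines and a gate marker, was at 1011, 1244 and 1227 CPM in neutrophils and missed the call. Its direction depended on the scaling, with 1824, 922 and 917 CPM under plain totals. Fpr1, the receptor for bacterial formyl peptides, was at 71.4, 817 and 769 CPM in neutrophils and 3.36, 152 and 145 CPM in classical monocytes. S1pr1, which lets lymphocytes leave tissue, fell in B cells (177, 42.8 and 38 CPM, -2.13 ± 0.12) and T cells (278, 117 and 109 CPM, -1.30 ± 0.16), and rose in endothelial cells as given above. Klf2, which maintains S1pr1 in lymphocytes, was called in neither class of lymphocyte; it rose in neutrophils (992, 4124 and 4258 CPM), a call that was lost under plain totals (1789.8, 3058 and 3183 CPM, 0.80), and fell in nonclassical monocytes (1331, 282 and 453 CPM).

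Transcripts of granule proteins made early in neutrophil development were higher in the neutrophils of the LPS libraries, and some of mature cells were lower. Ngp, Camp and Ltf, proteins of the secondary granules, were at 171, 4849 and 4661 CPM, 135, 2656 and 2659 CPM and 54.4, 623 and 626 CPM. Both LPS libraries were above the vehicle library in each. Cd101, a marker of mature neutrophils, was at 78.9, 0.427 and 0.595 CPM (-7.27 ± 0.26), and Mmp9, the gelatinase of late granules and a gate marker, at 964, 284 and 288 CPM (-1.75 ± 0.05). Other gate markers went both ways. Ly6g was found in 4.45%, 28.3% and 23.9% of neutrophils, Retnlg in 85.5%, 90.0% and 88.5% and G0s2 in 39.0%, 61.7% and 59.1%. Csf3r was found in 95.9%, 91.3% and 87.0% and Cxcr2 in 89.4%, 84.4% and 82.3%. Of 25 genes of granules and maturation, 11 were called higher and 4 lower, and 8 and 7 under plain totals. Over all 12317 genes tested in neutrophils, plain totals gave 513 higher and 2935 lower. The vehicle neutrophils were shallow, with a median of 1477 UMIs per cell against 5702.5 and 4101.5. The largest rises by the rule for named genes were Lipg, endothelial lipase (0, 1382 and 1306 CPM, at least 659-fold higher), Ifi211, an interferon-induced protein (0, 779.7 and 693 CPM), Cish and Nos2. Large falls included Mbp (165, 5.03 and 5.79 CPM), Ttc7 (207, 8.15 and 9.12 CPM) and Ccpg1, a receptor for autophagy of the endoplasmic reticulum (577, 26.1 and 27.4 CPM). Il1r2, the decoy receptor for IL-1, was at 137, 2071 and 2013 CPM.

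Alveolar macrophages are the resident cells of the airspace. Of 20 genes of their identity and lipid handling, 5 were called higher and 1 lower. Marco, a scavenger receptor, was at 224, 606 and 641 CPM, and Pparg, their lineage factor, at 143, 137 and 135 CPM, which missed the call. Csf2 (GM-CSF), which sustains these cells, was at 0, 1.19 and 0.856 CPM. Egr1, an immediate-early transcription factor, was at 16.5, 318 and 325 CPM (4.28 ± 0.09), and 11 of 21 immediate-early genes were called higher and 0 lower. In classical monocytes 2 of these 21 were called higher and 6 lower, with Fos at 2777, 563 and 518 CPM, and in conventional dendritic cells 4 of 20 were higher and 5 lower, with Egr1 at 291, 43.1 and 59.2 CPM. In neutrophils 10 of 21 were called higher and 1 lower, but 2 and 3 under plain totals. Such genes also answer to tissue digestion, whose part was not tested. The largest falls in alveolar macrophages were Rgs2, a brake on G protein signals (184, 35.8 and 33.7 CPM), Dhrs3, a retinal reductase (217, 44.8 and 40.2 CPM), the keratin Krt19 (528, 127 and 114 CPM) and the integrin Itga4 (120.0, 28.1 and 28.5 CPM).

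Cell cycle genes and early granule genes rose in classical monocytes. In the cell cycle list 15 of 20 members were called higher and 0 lower, and 12 and 0 under plain totals. Birc5, a mitotic regulator, was at 4.32, 92.2 and 94.9 CPM, and Mki67, the proliferation marker, at 38.4, 155 and 150.1 CPM. Early granule genes rose in the same class, with Mpo, myeloperoxidase, at 0.48, 173 and 168 CPM and Elane, neutrophil elastase, at 0.48, 105 and 127 CPM. In both LPS libraries all 4 genes were far above the level set from the ratios in gated neutrophils. The sum of S100a8 and S100a9 in classical monocytes was 0.849, 35.8 and 26.3 UMIs per cell. That level does not cover RNA of other cells. Whether immature granulocytes or progenitors were among the gated cells was not tested. Timp1, an inhibitor of matrix proteases, was at 0, 489 and 421 CPM, at least 316-fold higher. Falls included Ypel3 (242, 4.54 and 5.19 CPM), Rassf3 (111, 3.73 and 3.27 CPM) and Add3, a membrane skeleton protein (299, 12.9 and 12.4 CPM).

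The rarer myeloid classes gave fewer cells and wider intervals, and the nonclassical monocytes compared were in clusters 21 and 19, as given above. In nonclassical monocytes (354, 89 and 86 cells) Edn1, endothelin, was at 0, 410.2 and 327 CPM, at least 203-fold higher, and Ldlrad3 at 121, 0 and 0 CPM, at least 37.7-fold lower. In conventional dendritic cells (101, 99 and 113 cells) Ccr7, the receptor that leads them to lymph nodes, was at 158, 1914 and 2108 CPM, and the costimulatory Cd86 at 96.4, 1310.2 and 1290 CPM and Cd40 at 26.9, 811 and 837 CPM. Ccr7 is also one of the class's gate markers, and whether the mix of dendritic cell types differed between the libraries was not tested. Sept3, a septin, was at 123, 2.49 and 1.91 CPM there. In interstitial macrophages (70, 80 and 93 cells) Mxd4 was at 105, 5.81 and 4.49 CPM and Mtss1 at 108, 8.14 and 5.61 CPM. Removing the cells of highest doublet score left 69, 78 and 89 of these interstitial macrophages. With the cells of highest doublet score removed, edgeR's quasi-likelihood test called 0 genes in interstitial macrophages (lowest Benjamini-Hochberg adjusted p = 0.0887), while 2698 of 8234 genes had an unadjusted p under 0.05 and the interval rule alone gave 564 higher and 332 lower.

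B cells showed proliferation and activation genes beside the class II falls. In the cell cycle list 14 of 20 were called higher and 0 lower under both scalings, with Pclaf, a partner of the DNA polymerase clamp, at 2.24, 169.7 and 99.4 CPM (5.91 ± 0.20) and Top2a, a topoisomerase of dividing cells, at 10.6, 251 and 157 CPM (4.28 ± 0.16). Il2ra, the high-affinity IL-2 receptor chain, was at 1.86, 102 and 102 CPM (5.75 ± 0.22), and Cd69, an early activation marker that opposes S1PR1, at 282, 878 and 970.5 CPM. Myc, the growth regulator, was at 26.2, 335 and 313 CPM. For these genes the LPS libraries were both above the vehicle library. Atf3, a stress-induced repressor, was at 8.94, 143 and 161 CPM, and Trib3, a pseudokinase of the stress response, at 0.497, 15.8 and 11.5 CPM. The largest falls were Trim7 (147, 3.81 and 4.8 CPM), Pgap1, an enzyme of lipid anchors (258, 8.21 and 7.39 CPM), the adaptor Grap2 (109.6, 3.81 and 3.69 CPM) and the transcription factor Hhex (126, 4.69 and 6.65 CPM).

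Cytotoxic and interferon genes were higher in NK cells under LPS. Gzmb (granzyme B), which kills target cells, was at 845, 29573 and 28578 CPM (5.10 ± 0.18) and had at least 1 UMI in 804 of 1146 vehicle NK cells and in all 294 and 341 LPS NK cells. Ifng, the macrophage-activating interferon, was at 194, 2908 and 3660.5 CPM (4.08 ± 0.16), and NK cells held 78.0% and 83.3% of its UMIs under LPS against 88.5% in the vehicle library. As a background, Ifng had a UMI in 1 of 680 and 1 of 721 B cells under LPS. Cd69 was at 60.8, 504 and 582 CPM (3.16 ± 0.17) and Jaml, an adhesion protein, at 1.76, 133 and 185 CPM. Of 25 lymphocyte activation genes tested, 12 were called higher and 3 lower. Rasgrp2, which activates integrins, fell (174, 9.63 and 7.65 CPM), as did Tspan32 (135, 4.38 and 11.5 CPM).

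Among the 242 and 270 T cells of the LPS libraries, a small number carried cytokines of the IL-17 family and IL-22. Il22, which acts on epithelium, was at 0, 291 and 533 CPM, at least 637-fold higher, and Il17f, which recruits neutrophils through other cells, at 0, 158 and 283 CPM, at least 339.9-fold higher. Il17a was at 0.647, 156 and 382 CPM, from 3 UMIs in the vehicle library, and the ratio had a 95% interval of 136 to 1945. These RNAs came from 22 of 242 and 28 of 270 T cells under LPS and from 1 of 1403 in the vehicle library. Il17a had 0 UMIs in 294 and 341 NK cells and in 680 and 721 B cells, and a UMI in 9 of 5058 and 7 of 5752 neutrophils. Of the T cells with any of the 3 cytokines, 11 of 22 and 19 of 28 also had a UMI of Trdc or Tcrg-C1, constant regions of the gamma-delta receptor, against 16 of 220 and 14 of 242 of the other T cells; this pair of genes was chosen after the values were seen, and cells are not replicates. Gzmb was at 9.49, 1542 and 1368 CPM (7.25 ± 0.17). Tcf7 and Lef1, factors of resting T cells, fell, at 487, 187 and 191 CPM and 552, 164 and 155 CPM, as did Dapl1 (372, 38.2 and 51.2 CPM). In all, 13 of 29 activation genes were called higher and 3 lower.

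A set of 84 genes was called higher in every class. With plain totals 64 of them were called in all 11 classes. With the cells of highest doublet score removed none was, since no gene was called in interstitial macrophages, and 66 of the 84 were called in all 10 other classes. The 84 were led, by the median log2 difference, by Xist, which separates the libraries by sex, then Saa3, Cxcl9, Cxcl10, Lcn2, Upp1, Rsad2, Slfn4, AA467197 and Ifi205. Of these 84, 80 lay more than 2 times above the level set for neutrophil RNA in all 10 other classes. The exceptions were Ccl3 and Ccl4 (9 classes each) and Lcn2 and Upp1 (6 classes each). RNA from other cells is not covered by that level. Upp1, uridine phosphorylase, was at 1.92, 104 and 115 CPM in classical monocytes, and Slfn4, an interferon-induced protein of myeloid cells, at 219, 4736 and 4833 CPM in neutrophils. Falls were less shared. Ypel3 and Lbh were called lower in all 11 classes, and Mxd4, Add3, Ccpg1 and Rasgrp2 in 9; the Y-linked Ddx3y, Eif2s3y and Kdm5d fell in 11, 10 and 8 classes. Cmah, which makes a sialic acid, fell in 8. In neutrophils Ypel3 was at 383, 36.1 and 37.8 CPM and Lbh at 34, 5.45 and 5.35 CPM. At the other end, 1628 genes were called higher in a single class and 1551 lower in a single class, and 218 genes were called higher in one class and lower in another.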

How the data were processed

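Droplet single-cell RNA was measured in 3 wild-type lung libraries. The authors deposited UMI counts per gene and cell (32285 genes), made with Cell Ranger 6.1.0 on build mm10 per the submitters' processing notes, which also name Seurat 4.1.0 and R 4.1.3. Which gene annotation was used is not given. The deposited counts totalled 55361477, 115225284 and 94241659 UMIs (vehicle, LPS replicate 1, LPS replicate 2).

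Barcodes with at least 200 genes and at most 10% mitochondrial UMIs were kept. A cell joined a class when its score over the 4 top markers (each capped at the 90th percentile) was at least 0.35 and the second class scored at most 0.7 of the best. Scrublet was an alternative for doublets. Of the cells with the highest Scrublet scores, the gate had set aside 64.25%, 49.21% and 47.24% as more than 1 class (vehicle, LPS replicate 1, LPS replicate 2). UMIs were summed per library and class and tested with edgeR 4.0.16 (R 4.3.3) in the 11 classes with 30 or more cells in every library, with 1 residual degree of freedom. The SE of a log2 difference was the size of the difference divided by the square root of edgeR's F statistic, so it carries the limits of that test. Ratios carry exact 95% intervals for counting error only. DESeq2 1.42.0, Python 3.11.15, scipy 1.17.1, scanpy 1.11.5 and leidenalg 0.10.2 served the other steps. The fit was checked on simulated data.

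The classes, 32 gene lists and comparisons were chosen with earlier results of these data known. Named genes were up to 6 called members per list and class by size of change and the list member with the highest level, a fixed set of response genes, the 4 largest rises and falls per class with at least 100 CPM (a rise also at least 5 times above the class with the lowest level per cell), and the genes called in the most classes. Named outside that rule, after their values were seen, were Ccl6, Cdh5, Elane, H2-Ab1, Ifit3, Lef1, Ltf, Mki67, Mmp9, Mpo, Pparg, Slc40a1, Tcf7 and Top2a. Alternatives were other scalings, filters, fold thresholds, clusters, denominators, DESeq2 and leaving out each LPS library. Some genes that the rule names are not reported here.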

Additional observations from a re-analysis of the deposited data

Results flagged for a closer look

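In 13 genes of the lists, both LPS libraries lay above the vehicle library in one class and below it in another, each past the threshold. Gate markers were left out, and a rise also had to be at least 5 times above the class with the lowest level per cell. Only the class of the largest rise and that of the largest fall were checked for at least 100 CPM on the higher side. Other genes were called in both directions, such as S1pr1 above, and are not among the 13. The difference between the classes itself was not tested. Values are log2 differences, LPS minus vehicle.

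Atf3, a stress-induced transcription factor, was at 4.08 in B cells and -1.85 in classical monocytes. Bhlhe40, a transcriptional repressor, was at 1.56 in NK cells and -2.28 in nonclassical monocytes. Ccl6, a CC chemokine, was at 1.42 in alveolar macrophages and -2.11 in neutrophils. Cd74, the invariant chain of class II, was at 3.10 in neutrophils and -2.42 in stromal cells. Chil3, a chitinase-like protein, was at 3.46 in neutrophils and -1.79 in conventional dendritic cells. Ddit4, an inhibitor of mTORC1, was at 4.05 in endothelial cells and -3.42 in nonclassical monocytes. Egr1, an immediate-early factor, was at 4.28 in alveolar macrophages and -2.52 in conventional dendritic cells. Fgl2, a fibrinogen-like protein, was at 3.77 in conventional dendritic cells and -1.30 in neutrophils. Irf8, a factor of dendritic cell and monocyte development, was at 3.47 in endothelial cells and -1.94 in conventional dendritic cells. Klf2, a shear- and quiescence-linked factor, was at 2.08 in neutrophils and -1.89 in nonclassical monocytes. Ncf4, a subunit of the NADPH oxidase, was at 2.02 in neutrophils and -1.36 in B cells. Nr4a1, an orphan nuclear receptor, was at 3.63 in neutrophils and -1.30 in nonclassical monocytes. Selplg, the ligand of P-selectin, was at 1.29 in conventional dendritic cells and -1.47 in NK cells.

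Under plain totals 10 of the 13 kept both calls. Klf2 and Ncf4 in neutrophils were at 0.80 and 0.74, and Selplg in conventional dendritic cells at 0.72, and these 3 were no longer called higher.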

How the results depend on the processing

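No paired analysis was possible because the vehicle group has 1 library, so the groups share fewer than 2 replicate numbers. With a threshold of 1.5-fold in place of 2-fold, genes called higher numbered 1188 in alveolar macrophages, 899 in interstitial macrophages, 1775 in classical monocytes, 1948 in B cells, 777 in T cells and 767 in NK cells; genes called lower numbered 1333 in neutrophils, 839 in alveolar macrophages, 598 in interstitial macrophages, 1529 in classical monocytes, 646 in nonclassical monocytes, 661 in conventional dendritic cells, 1314 in B cells, 364 in T cells, 515 in NK cells, 1329 in endothelial cells and 244 in stromal cells. By edgeR's adjusted p alone, higher and lower counts were 3187 and 2288 in neutrophils, 3859 and 3434 in alveolar macrophages, 1490 and 1135 in interstitial macrophages, 3558 and 3054 in classical monocytes, 1535 and 1726 in nonclassical monocytes, 1967 and 1566 in conventional dendritic cells, 3494 and 3349 in B cells, 1654 and 1464 in T cells, 1725 and 1494 in NK cells, 3318 and 2998 in endothelial cells and 948 and 646 in stromal cells. Plain totals gave 513 higher in neutrophils, 446 in conventional dendritic cells and 763 in endothelial cells, and lower counts of 2935 in neutrophils, 527 in alveolar macrophages, 658 in interstitial macrophages, 1496 in classical monocytes, 799 in conventional dendritic cells, 412 in NK cells, 1779 in endothelial cells and 186 in stromal cells. DESeq2 gave 114 lower in interstitial macrophages, 217 in conventional dendritic cells and 32 in stromal cells. Leaving out 1 LPS library gave lower counts of 403 to 522 in alveolar macrophages, 476 to 495 in interstitial macrophages, 458 to 569 in nonclassical monocytes, 230 to 233 in T cells, 357 to 369 in NK cells and 194 to 198 in stromal cells; 1 library a group leaves no residual degrees of freedom, so the interval alone set those counts. With Scrublet's doublets removed, edgeR's test called 0 genes higher and 0 lower in interstitial macrophages (2698 at an unadjusted p under 0.05; DESeq2 was not run there). The cause was not tested.

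Leiden clusters in place of the gate gave 706 genes lower in alveolar macrophages, 936 higher in interstitial macrophages and 210 lower in T cells, LPS-to-vehicle share ratios of 0.619 for interstitial macrophages (1.12 by the gate) and 4.13 for stromal cells (0.797 by the gate), and a log2 difference of 0.51 for Ccr2 in B cells (-2.57 by the gate); nonclassical monocytes could not be compared there. With neutrophils left out of the denominator, the ratio was 2.01 for interstitial macrophages, 1.71 for conventional dendritic cells, 3.49 for platelets and 1.61 for endothelial cells. With at least 500 genes and at most 5% mitochondrial UMIs, the plasmacytoid dendritic cell ratio was 5.35 and its intervals overlapped. Of 500 called values of named genes, plain totals kept the call in 481 and lost it in 19. DESeq2 gave 494 of them and kept the call in 483, and clusters gave 420 and kept it in 408. The call asks for the threshold in each LPS library, so leaving one out could not turn a direction. Leaving out X and Y genes, or genes within 2 times of neutrophil RNA, was chosen after seeing the data and kept each count within 1.5 times. One control library, its sex and its lower depth limit every comparison.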

Other observations

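Complement, cell death, glycolysis and clock genes were counted in the same way. Over all tested genes, 4.91% (alveolar macrophages) to 12.1% (B cells) of a class were called higher. The share called lower was 1.53% (T cells) to 8.01% (classical monocytes). None of these lists was tested against those shares, and low counts lie near them. Of the complement and Fc receptor list, 13 of 24 tested members were called higher in neutrophils, 12 of 18 in nonclassical monocytes and 8 of 14 in NK cells, with 0, 2 and 2 lower; under plain totals the counts were 8, 12 and 6 higher. Of the cell death and survival list, 12 of 23 were higher and 2 lower in neutrophils, and 12 of 22 higher and 1 lower in endothelial cells. Glycolysis and hypoxia genes had 2 to 6 members called higher in each of the 11 classes, with 6 of 18 higher and 1 lower in neutrophils (3 and 3 under plain totals) and 5 of 17 higher and 1 lower in endothelial cells (3 and 2). Clock genes were lower in 4 of 14 tested members in endothelial cells, where 2 were higher (6 lower and 1 higher under plain totals), and in 4 of 10 in stromal cells, where 0 were higher. Dbp, an output gene of the clock, was at 206, 2.6 and 0 CPM in stromal cells.

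Stromal cells, few in number (55, 44 and 53 cells), had Cilp, a matrix protein, at 153, 0 and 0 CPM and Tcap, a muscle protein, at 276, 0 and 10.2 CPM. Saa1, a serum amyloid A known from liver, was at 0, 2061 and 2805 CPM in the same cells.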
